A study of Mus musculus with 6 samples.

Results

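The peaks described here are those of tagged thyroid hormone receptor β1 (TRβ1) in 4 blocks of mouse liver chromatin in which many sites were called without injected thyroid hormone and few with it alone. On mm9, the blocks are the 1.5 Mb of chromosome 10 that end at 81000000 and stretches of 0.5 Mb that begin at 120000000 on chromosome 11, at 56000000 on chromosome 17 and at 73000000 on chromosome 8, 3 Mb in total. A peak is a member if its midpoint lies in a block. This gave 586 of the 51992 peaks of the list without hormone and 314 of the 46092 peaks of the list with hormone, 900 of 98084 together. A member that shares at least 1 bp with a peak of the other TRβ1 list is called shared, and the others are called PTU-only or T3-only. The blocks were proposed because of these classes, so every count of them below, and every comparison of the 2 lists inside the blocks, is a description and supports nothing by itself.

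The study compared 3 kinds of liver sample by ChIP-seq, with 1 library each, and the matching input libraries were not analysed here. All mice were 9 to 10 weeks old, heterozygous for the biotin ligase BirA and kept on a diet with propylthiouracil (PTU), which blocks the making of thyroid hormone, for 3 weeks. Adenovirus was then given by tail vein, and saline or triiodothyronine (T3) was injected for 4 days. TRb PTU livers carried virus for GFP and biotinylated TRβ1 and received saline, TRb T3 livers carried the same virus and received T3, and GFP PTU livers carried virus for GFP alone and received saline. The receptor measured is thus the tagged one that the virus supplied, captured on streptavidin, in mice that were all on PTU. With 1 library per condition there is no spread between animals to set a difference against, and no test between conditions was made. Read depth is unknown, so more peaks in a list cannot be told apart from more reads behind it. A site bound in fewer cells and a site bound less in each cell cannot be told apart either.

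TRβ1 is a nuclear receptor that sits on DNA, usually together with the retinoid X receptor, at paired copies of a short hexamer motif. In the textbook model it stays on chromatin without hormone and holds corepressors such as NCoR there, and T3 exchanges these for coactivators. In liver it controls genes of fat, cholesterol and carbohydrate metabolism. The genes named next are placed from general knowledge of the mouse map, and not from these data. The block on chromosome 10 includes Stk11 (an AMPK-activating kinase), Tcf3 (a transcription factor), Dot1l (a histone H3 lysine methyltransferase) and Eef2 (translation elongation). The block on chromosome 11 includes Actg1 (a cytoskeletal actin) and P4hb (a protein disulfide isomerase). The block on chromosome 17 includes Plin5 (a lipid droplet protein) and Uhrf1 (a DNA methylation factor), and that on chromosome 8 includes Gdf15 (a stress-induced hormone) and Jund (an AP-1 transcription factor). These genes were picked after the values were seen. In the RefSeq gene table of GRCm38.p6, 58 protein-coding genes stand in order from Stk11 to Eef2, 16 from Actg1 to P4hb, 11 from Plin5 to Uhrf1 and 4 from Gdf15 to Jund, ends included. That table is of another build, so no peak was assigned to a gene, gene density was not measured on mm9, and no sequence of the peaks is printed.

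The blocks were crowded with TRβ1 sites in both states, and more so without hormone. TRb PTU had 195 peaks per Mb there and TRb T3 had 105 per Mb, which is 1 peak every 5.12 and 9.55 kb. The ratio of TRb PTU to TRb T3 peak numbers was 1.87 (interval 1.62 to 2.15), against 1.12 (interval 1.11 to 1.14) in the rest of the series. All intervals are exact 95% binomial intervals over peaks, treat peaks as independent counts and cover counting error only. By chromosome the ratio was 1.87 on chromosome 10 (306 against 164 peaks), 2.42 on chromosome 11 (92 against 38), 1.88 on chromosome 17 (90 against 48) and 1.53 on chromosome 8 (98 against 64). Every block thus had more TRb PTU peaks, and the intervals of the 4 ratios overlapped, running from 1.11 to 2.13 on chromosome 8 and from 1.64 to 3.63 on chromosome 11. In bases, TRb PTU peaks covered 174 kb, 5.80% of the blocks, and TRb T3 peaks covered 74.2 kb, 2.47%.

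By overlap of at least 1 bp, most sites called with hormone were also called without it, while the reverse did not hold. Of the 586 TRb PTU members, 322 were PTU-only (54.9%, interval 50.8 to 59.0%), where 46.1% of all TRb PTU peaks are PTU-only. Of the 314 TRb T3 members, 37 were T3-only (11.8%, interval 8.43 to 15.9%), where 38.7% of all TRb T3 peaks are T3-only. By block, the PTU-only share was 53.6% for chromosome 10, 62.0% for chromosome 11, 54.4% for chromosome 17 and 53.1% for chromosome 8. The T3-only share was 7.93% on chromosome 10 (13 peaks), 7.89% on chromosome 11 (3 peaks) and 10.4% on chromosome 17 (5 peaks). It was higher on chromosome 8, where 16 of 64 peaks were T3-only (interval 15 to 37.4%), so this block held 16 of the 37 T3-only members. Since the blocks were chosen by these classes, the departure of the shares from those of the whole lists is not a result.

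**Figure D1:**
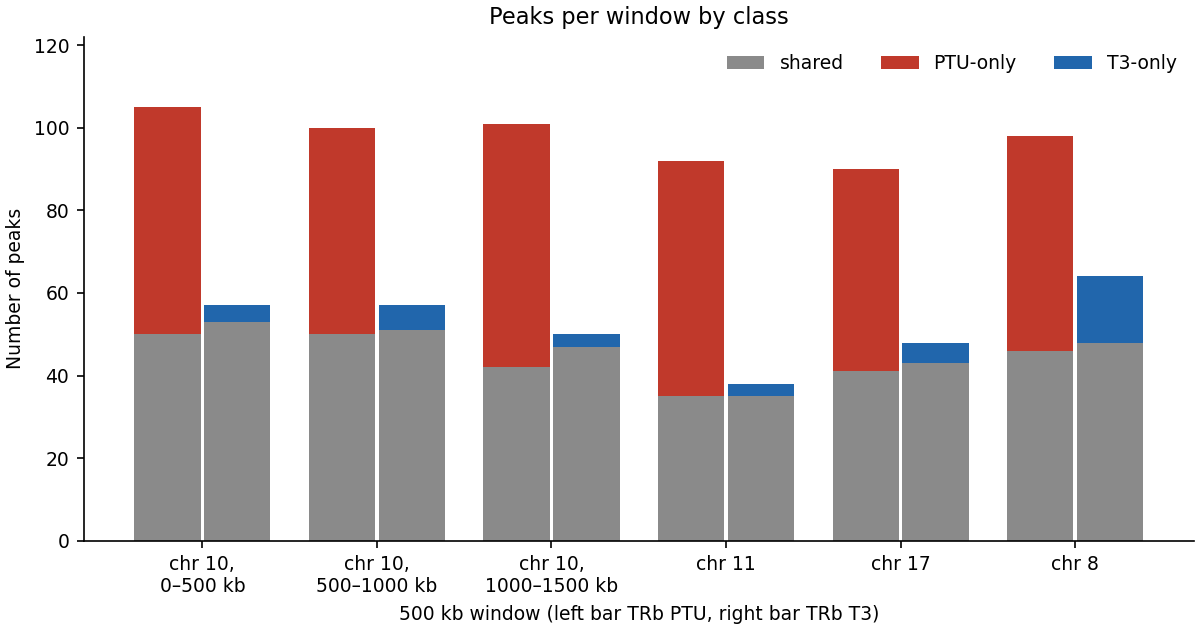
Number of peaks in each of the 6 windows of 500 kb that make up the blocks, with TRb PTU on the left and TRb T3 on the right of each pair of bars, split into shared and single-list peaks. The 3 pairs of bars at the left are the block on chromosome 10. TRb PTU bars stand between 90 and 105 peaks and TRb T3 bars between 38 and 64.

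The excess ran through the blocks and did not sit at a few spots. In 29 of 30 bins of 100 kb, TRb PTU had more peaks than TRb T3, and in 20 of 30 bins PTU-only peaks outnumbered shared TRb PTU peaks. PTU-only peaks numbered from 2 to 22 per bin with a median of 10.5, and 10 of the 30 bins held 0 T3-only peaks. Bins were counted in the blocks only, so these numbers have no share elsewhere to be set against. The fullest bin was on chromosome 10 from 80800001 to 80900000, where TRb PTU had 41 peaks (22 of them PTU-only) and TRb T3 had 22 (1 of them T3-only). The exception was the last bin of the block on chromosome 8, from 73400001, with 2 TRb PTU and 3 TRb T3 peaks and 0 shared. The first bin of that block, from 73000001, was also nearly even, with 22 against 21 peaks, and held 9 PTU-only and 8 T3-only peaks. That bin thus held 8 of the 16 T3-only members on chromosome 8.

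**Figure D2:**
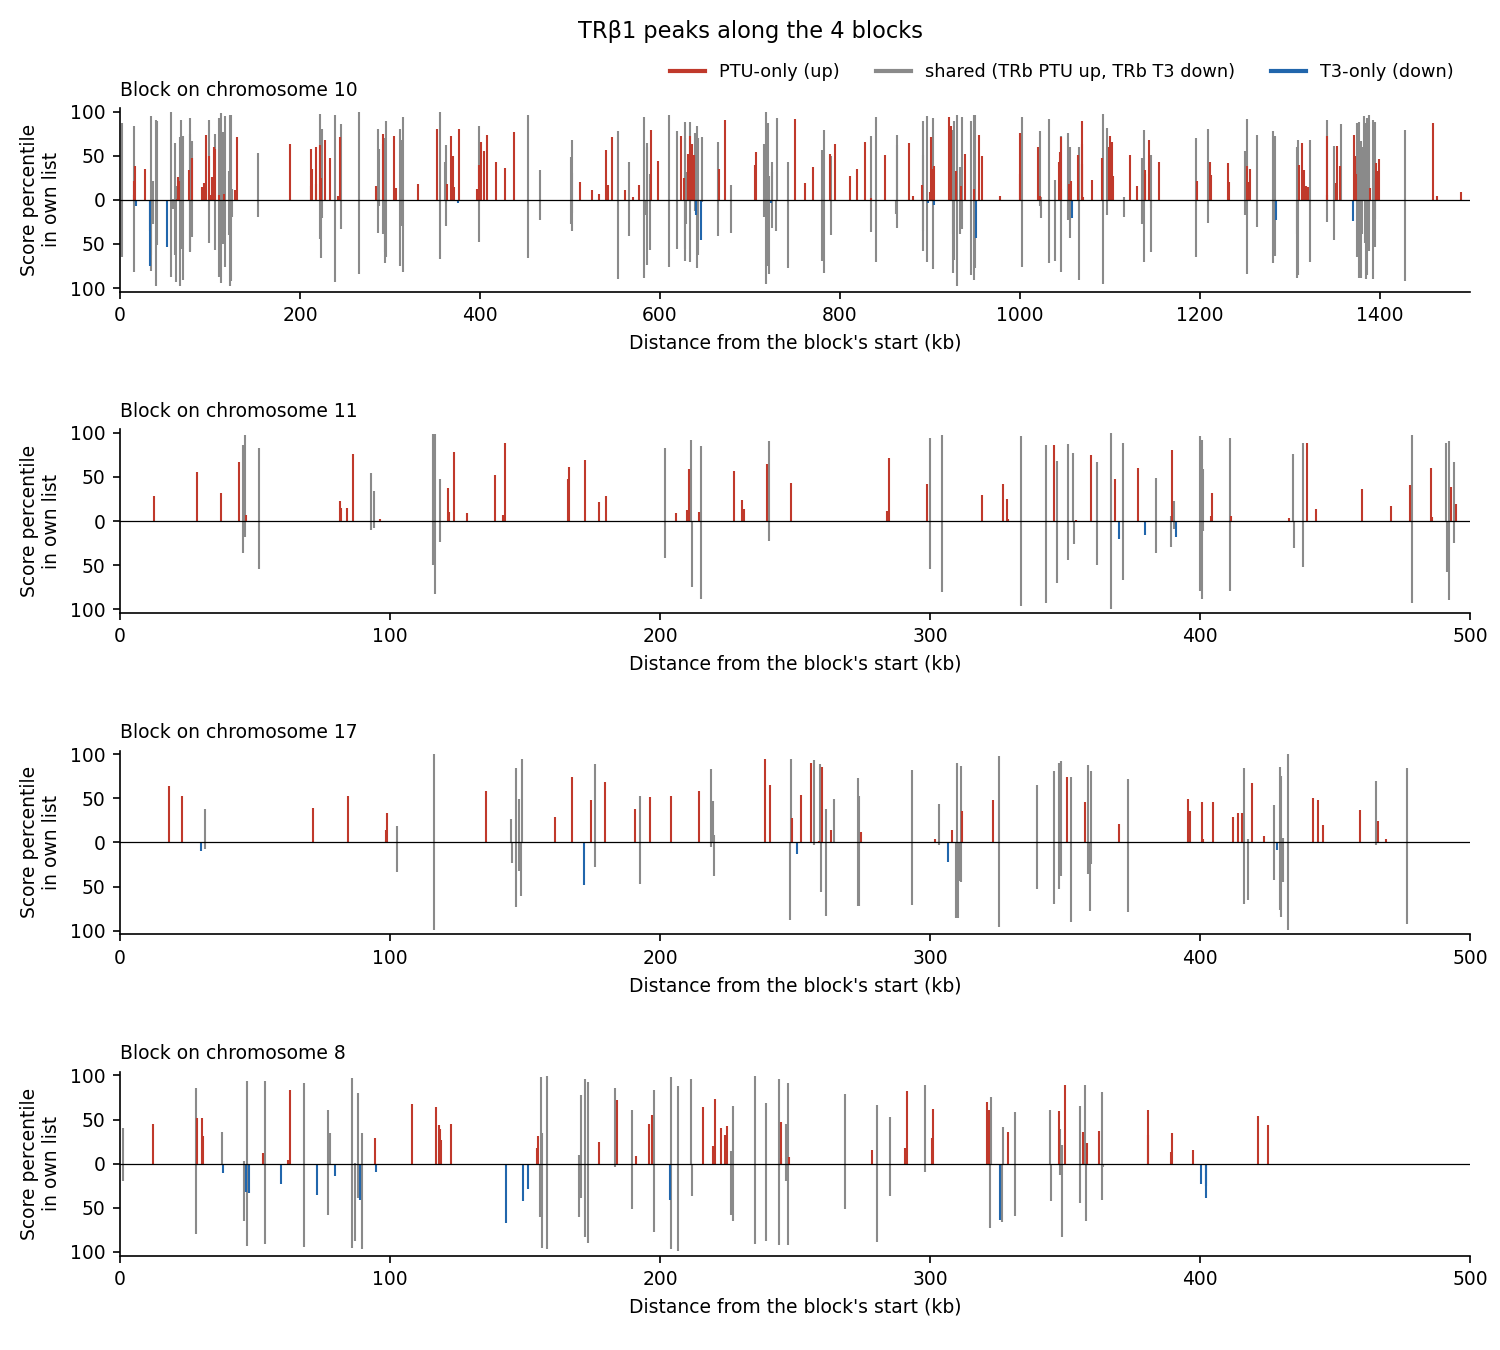
Each peak of the 4 blocks at its distance from the block's start in kb, drawn upward for TRb PTU and downward for TRb T3, with the height as the percentile of its score in its own list. PTU-only peaks stand between the shared peaks along the whole length of each block, and the tallest lines in both directions are shared.

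PTU-only and shared peaks stood among each other along the blocks, with some unbroken series of either class. Of the 623 sites of the blocks (all TRb PTU members and the T3-only members), 51.7% were PTU-only, 42.4% shared and 5.94% T3-only. Counted in the same way, the whole series had 23982 PTU-only, 28010 shared and 17816 T3-only sites, so there shared sites were the largest class. With all sites of a block put in order, the neighbours of a PTU-only peak were PTU-only in 58.5% of cases, shared in 36.9% and T3-only in 4.54%. The difference from the shares over the 623 sites was not tested. There were 16 series of 5 or more PTU-only peaks in a row, holding 100 of the 322, and 7 such series of shared peaks, holding 43. Series were not counted outside the blocks, and whether these numbers exceed those of a random order was not tested. The longest PTU-only series had 12 peaks in 58936 bp on chromosome 11, from 120121263 to 120180198. Its scores ran from 6.22 to 77.16 with a median of 16.19, and its strongest peak lay at 120142437 to 120142857, 24211 bp from the nearest TRb T3 midpoint. The next had 8 peaks in 20428 bp on chromosome 17, from 56395356 to 56415783, with scores from 5.44 to 19.10. Of the shared series, the longest had 10 peaks in 14027 bp on chromosome 10, from 80874411 to 80888437, with TRb PTU scores from 15.79 to 134.19 and a median of 74.81. These series were picked after their values were seen.

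Each peak carries a score from the authors' peak caller, which is used here only for ranking within a list, as a percentile that is 100 for the highest score. The strongest sites of the blocks were shared. Shared TRb PTU members had a median percentile of 78.4, against 67.5 for shared TRb PTU peaks in the rest of the series. Their TRb T3 counterparts, the shared TRb T3 members, had a median percentile of 58.2, against 61.6 in the rest. Sites in the blocks that were called in both states thus ranked high in the list without hormone and in the middle of the list with it. PTU-only members had a median percentile of 37.2 (32.4 in the rest) and T3-only members 23.2 (34.0 in the rest). With the lower-scored part of each list removed (below its median), the remaining peaks were classed and ranked again. There were then 20 T3-only members, with a median of 36.3. Only 4 of the 37 T3-only members ranked above the middle of the TRb T3 list. Most of the 20 were thus shared members whose TRb PTU partner was removed, and 36.3 and 23.2 do not describe the same peaks. The highest decile of the TRb PTU list included 70 shared and 4 PTU-only members, and that of the TRb T3 list included 35 shared and 0 T3-only members.

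TRb PTU had more members than TRb T3 in every score decile, each list being cut into its own deciles, by 1.45 to 2.11 times. The interval of this ratio lay above 1 in 9 of 10 deciles and included 1 in the third, which held 45 and 31 members (interval 0.899 to 2.37). The lists differ in length, however, and the ratio of the whole lists is 1.13. That value lay inside the intervals of the third, the fourth (1.05 to 2.56) and the fifth decile (1.11 to 2.74). In the lowest decile the numbers were 57 and 29, and in the highest 74 and 35. The blocks held 1.42% of the highest TRb PTU decile and 0.759% of the highest TRb T3 decile, against 1.06 and 0.630% of the lowest. Among TRb PTU members, the PTU-only share was 85.1% in the lowest 3 deciles (interval 78.4 to 90.3%), against 71.2% in the rest of the series. It was 64.7% in the middle 4 deciles (interval 58.1 to 71.0%), against 49.9%, and 31.3% in the eighth and ninth (interval 23.6 to 39.9%), against 20.3%. In the highest decile it was 5.41% (4 of 74, interval 1.49 to 13.3%), against 5.58% in the rest, so there the shares were not distinguishable at this number of peaks. The T3-only share in the lowest 3 deciles was 27.1% (interval 18.0 to 37.8%), against 58.3% in the rest. In the highest 2 deciles it was 0 of 72 peaks, which allows a share of up to 4.17% (4.99% by the exact interval), against 13.5% in the rest. In the highest decile alone it was 0 of 35, up to 10.0% by the exact interval, against 8.77% in the rest. There the T3-only shares were not distinguishable either.

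**Figure D3:**
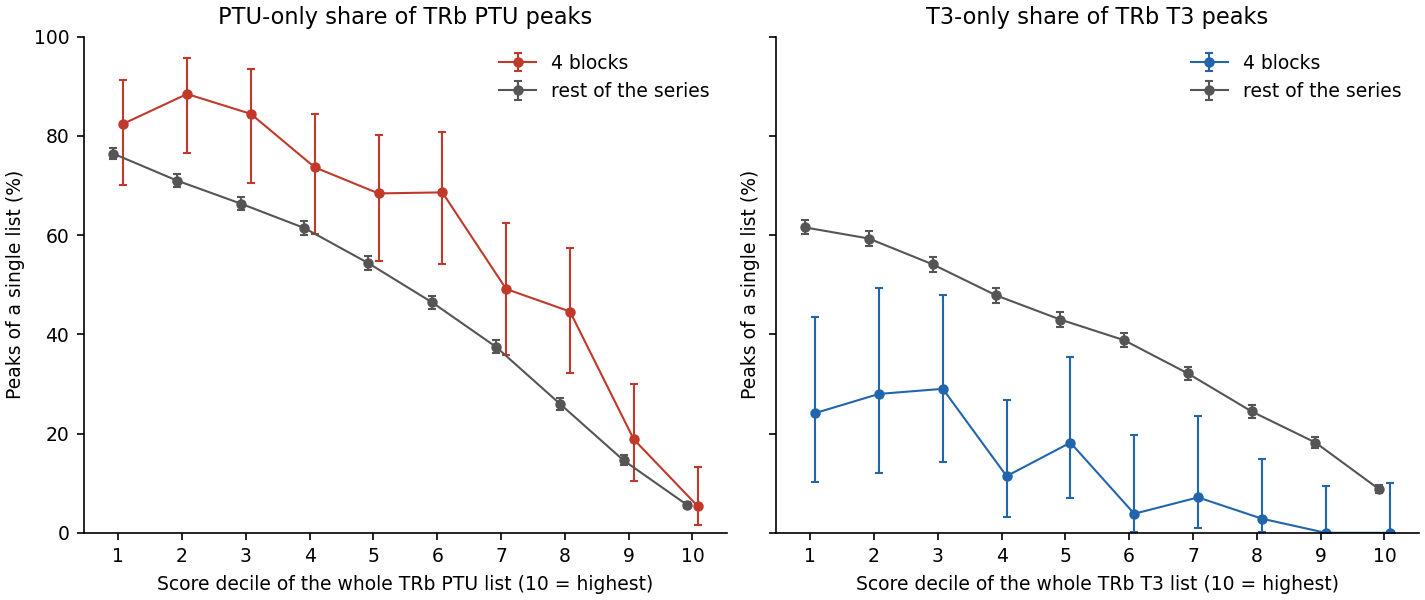
Share of single-list peaks by score decile of the whole list, in the blocks and in the rest of the series, with exact 95% binomial intervals over peaks. In TRb PTU the blocks lie above the rest in deciles 1 to 9 and meet it in decile 10, at 5.41 and 5.58%. In TRb T3 the blocks lie below the rest in every decile. The interval of the blocks includes the value of the rest in TRb PTU deciles 1, 4, 7, 9 and 10 and in TRb T3 decile 10.

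The strongest TRβ1 site of the blocks in livers without hormone was a shared one at chr17:56432330-56432589. It had a TRb PTU score of 302.30, which ranked 112 of 51992, and its TRb T3 partner at 56432281 to 56432608 had a score of 232.48, which ranked 354 of 46092. The next was at chr10:79556894-79557299, with a TRb PTU score of 292.41 at rank 136. Its TRb T3 partner, at 79556929 to 79557183, ranked 5693, so this site stood far lower in the list with hormone. The site at chr11:120366715-120367250 ranked 170 in TRb PTU and its partner 116 in TRb T3, where it was the highest-scored member. The site at chr8:73157867-73158484 ranked 175 and its partner 1576, and a second site on chromosome 17, at 56116079 to 56116362, ranked 189 and its partner 570. These 5 stood between rank 112 and 189 of TRb PTU, and their partners between rank 116 and 5693 of TRb T3. Ranks in lists of different length do not measure a change.

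In the other windows of chromosome 10, the strongest shared peaks were at 80217590 to 80218051 (TRb PTU rank 286, partner rank 2382) and at 80591722 to 80592296 (rank 1538, partner rank 2216). Ordered by the TRb T3 score, the members after those on chromosomes 11 and 17 were at chr8:73206680-73206943 (rank 745) and at chr10:79540000-79540343 (rank 882). Their TRb PTU partners ranked 5996 and 5045. So the blocks also held shared sites that stood higher in the list with hormone.

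The strongest PTU-only peak lay at chr17:56238765-56238994, with a score of 114.84 at rank 3054. The nearest TRb T3 midpoint was 9405 bp away. It was followed on chromosome 10 by 80420613 to 80421027 (score 114.08, rank 3091), 80250350 to 80250619 (score 93.97, rank 4458) and 80172635 to 80172844 (score 87.70, rank 5005). The nearest TRb T3 midpoints were 4198, 8025 and 6079 bp away. The fifth was at chr17:56255723-56255951, with a score of 83.57 and a TRb T3 midpoint at 1223 bp. In the windows not yet named, the strongest PTU-only peaks were at chr8:73349759-73350162 (82.55), at chr10:80568803-80569124 (82.20) and 79876024 to 79876238 (51.74), and at chr11:120439477-120439744 (77.56). All of these scored below the 5 strongest shared members, whose TRb PTU scores were 278.32 or more.

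T3-only members had low scores. The strongest lay at chr10:79532783-79532957, with a score of 47.17 at percentile 75.4 of the TRb T3 list. Next were 2 on chromosome 8, at 73142899 to 73143108 (score 35.30) and 73325800 to 73326028 (score 32.58), then chromosome 10 at 79552016 to 79552186 (24.01) and chromosome 17 at 56171701 to 56171862 (21.36). The strongest on chromosome 11 was at 120369986 to 120370117 (10.72), and in the other windows of chromosome 10 they were at 80146009 to 80146181 (19.55) and 80870454 to 80870604 (11.62). Only 4 of the 37 (10.8%) ranked above the middle of the TRb T3 list. Of T3-only peaks in the rest of the series, 31.5% did, so low scores were common in this class elsewhere too. The median width of the 37 was 157 bp, against 170 bp for T3-only peaks in the rest of the series.

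Single-list members had close neighbours in the other list. PTU-only members lay a median of 3150 bp from the nearest TRb T3 midpoint, and 72 of 322 (22.4%) lay within 1000 bp. In the rest of the series the median was 6964 bp and 15.7% lay within 1000 bp. In the 90 windows of 500 kb outside the blocks where TRb T3 had 40 peaks or more, which are dense in sites as well, the median was 3039 bp and the share within 1000 bp 23.6%, so the distance in the blocks was close to that in these windows. The PTU-only member closest to a TRb T3 peak was at chr10:80545273-80545419, 256 bp between midpoints, and the farthest was at chr11:120165743-120165909, 35942 bp, inside the longest series. T3-only members lay a median of 1063 bp from a TRb PTU midpoint, and 36 of 37 (97.3%) lay within 10000 bp. In the rest of the series the median for T3-only peaks was 5896 bp with 60.6% within 10000 bp, and in the same 90 windows it was 2531 bp with 81.5%. Those windows had 98.6 TRb PTU peaks per Mb, against 195 in the blocks, so this distance was not compared at equal TRb PTU density. The exception in the blocks was the peak on chromosome 8 at 73142899, 11348 bp away.

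Shared sites were compared directly through single pairs, in which each peak meets 1 peak of the other list. There were 27010 such pairs in the series and 249 in the blocks, and both lists were ranked again among the pairs so that the percentiles have the same length. In the blocks 169 of 249 pairs (67.9%, interval 61.7 to 73.6%) ranked higher in TRb PTU, where 51.1% of all pairs did. The median difference, TRb PTU minus TRb T3, was 8.91 percentile points in the blocks (quartiles -5.41 and 29.1) and 0.51 over all pairs (quartiles -16.8 and 17.8). The share of pairs ranked higher in TRb PTU was 67.9% for chromosome 10, 82.9% for chromosome 11 (29 of 35 pairs), 63.9% for chromosome 17 (23 of 36) and 59.1% for chromosome 8 (26 of 44). On chromosomes 17 and 8 the intervals, 46.2 to 79.2% and 43.2 to 73.7%, included the share of all pairs. The pairs are from the contrast that chose the blocks and share its libraries, and they add no independent evidence.

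Pairs in the blocks spread widely in both directions. The largest difference towards TRb PTU was on chromosome 17, where the TRb PTU peak at 56256556 to 56257190 stood at percentile 88.2 of pairs and its TRb T3 partner at 1.97. On chromosome 11 the TRb PTU peak at 120045952 to 120046511 stood at percentile 95 and its partner at 11.1. Towards TRb T3, the largest difference was on chromosome 10, where the TRb PTU peak at 79562010 to 79562219 stood at percentile 7.12 and its TRb T3 partner, at 79561912 to 79562237, at 90.2. The other 4 of the 5 largest differences towards TRb T3 were all on chromosome 8, in pairs whose TRb T3 peaks began at 73086776, 73089502, 73156320 and 73348878. These pairs were picked after their values were seen.

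**Figure D4:**
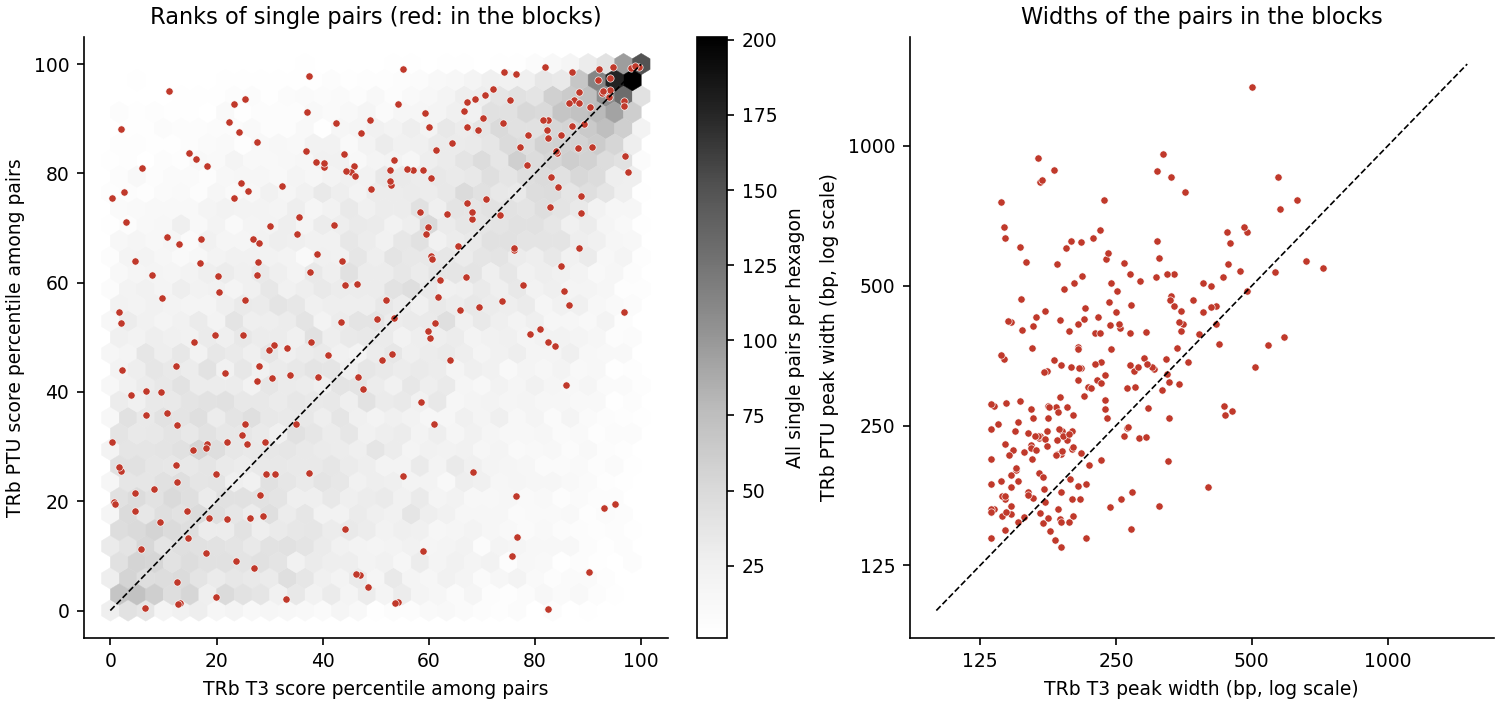
Left, score percentile among the 27010 single pairs in TRb T3 and TRb PTU, with all pairs in grey and the 249 pairs of the blocks in red. Right, peak widths of the 249 pairs in bp on log axes. The dashed lines mark equality, with 169 of the red points above it on the left and 197 above it on the right.

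TRb PTU peaks in the blocks were also wide. Shared TRb PTU members had a median width of 318 bp, against 240 bp in the rest of the series, while shared TRb T3 members had 206 bp, against 212 bp. PTU-only members had a median of 198 bp, against 184 bp. Within single pairs the TRb PTU peak was the wider in 197 of 249 (79.1%, interval 73.5 to 84.0%), against 59.5% in the rest, and the median difference was 68 against 16 bp. By block the TRb PTU peak was the wider in 82.8% of pairs for chromosome 10, 88.6% for chromosome 11, 72.2% for chromosome 17 and 65.9% for chromosome 8. Width moves with score, with a Spearman coefficient of 0.63 across the 51992 TRb PTU peaks and 0.67 across the 46092 TRb T3 peaks, each within 1 library. Among members in the highest score decile the median width was 429 bp in TRb PTU, against 347 bp in the rest of that decile, and 322 bp in TRb T3, against 317 bp. The midpoints of a pair lay a median of 26.5 bp apart in the blocks and 18 bp in the rest.

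Some TRb PTU peaks met more than 1 TRb T3 peak, by at least 1 bp each. This held for 13 of 586 TRb PTU members (2.22%, against 0.969% in the rest). In turn, 1 of 314 TRb T3 members met more than 1 TRb PTU peak (0.318%, against 0.531% in the rest). On chromosome 10 the TRb PTU peak at 79533518 to 79534675, 1158 bp wide, met 3 TRb T3 peaks. They lay at 79533513 to 79533673, 79533778 to 79534271 and 79534409 to 79534636. The widest TRb PTU member, at 79785663 to 79786999 on chromosome 10, measured 1337 bp and met 1 TRb T3 peak of 500 bp. The widest TRb T3 member was at chr8:73053273-73053990, with 718 bp, and its TRb PTU partner had 545 bp.

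Livers with GFP alone had 1 of their 107 peaks in the blocks, at chr17:56339440-56339506. It was 67 bp wide and its score of 31.14 was the second highest of that list. A peak of each TRβ1 list met it, at 56339360 to 56339577 in TRb PTU (percentile 64.6) and at 56339359 to 56339567 in TRb T3 (percentile 53.1). This shared pair is therefore also a site of capture without the tagged receptor. No other member met a GFP peak.

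In the genome-wide order of 500 kb windows, the blocks stood out more in the list without hormone than in the other. Of 4085 windows with a TRβ1 peak on chromosomes 1 to 19 and X, the 6 windows of the blocks ranked 1, 2, 3, 5, 6 and 7 by TRb PTU peaks, with 90 to 105 peaks each. By TRb T3 peaks the window on chromosome 8 ranked 5 with 64 peaks, those on chromosome 10 ranked 11, 11 and 23, that on chromosome 17 ranked 31 and that on chromosome 11 ranked 112 with 38 peaks. The 90 windows outside the blocks with 40 or more TRb T3 peaks had 4437 TRb PTU and 4270 TRb T3 peaks, a ratio of 1.04. Their PTU-only share was 36.4% (interval 35.0 to 37.9%), with a range over windows from 0 to 53.8% and a median of 36.0%. The 6 windows of the blocks ranged from 50 to 62.0%, and 6 of the 90 other windows were at or above the lowest of these. A minimum on TRb T3 peaks leaves out windows with few of them, however, and the window on chromosome 11 does not meet it itself. With a minimum of 80 peaks of both lists together, chosen after the values were seen, all 6 windows of the blocks qualified with 135 others. In these the PTU-only share was 43.9% (interval 42.7 to 45.0%), with a range from 11.8 to 68.3% and a median of 43.6%. Of the 135, 43 were at or above the lowest window of the blocks and 5 were above the highest. A PTU-only share as high as that of the blocks was thus also found in other windows with many peaks. In the 90 windows with 40 or more TRb T3 peaks, 52.5% of 2695 single pairs ranked higher in TRb PTU.

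**Figure D5:**
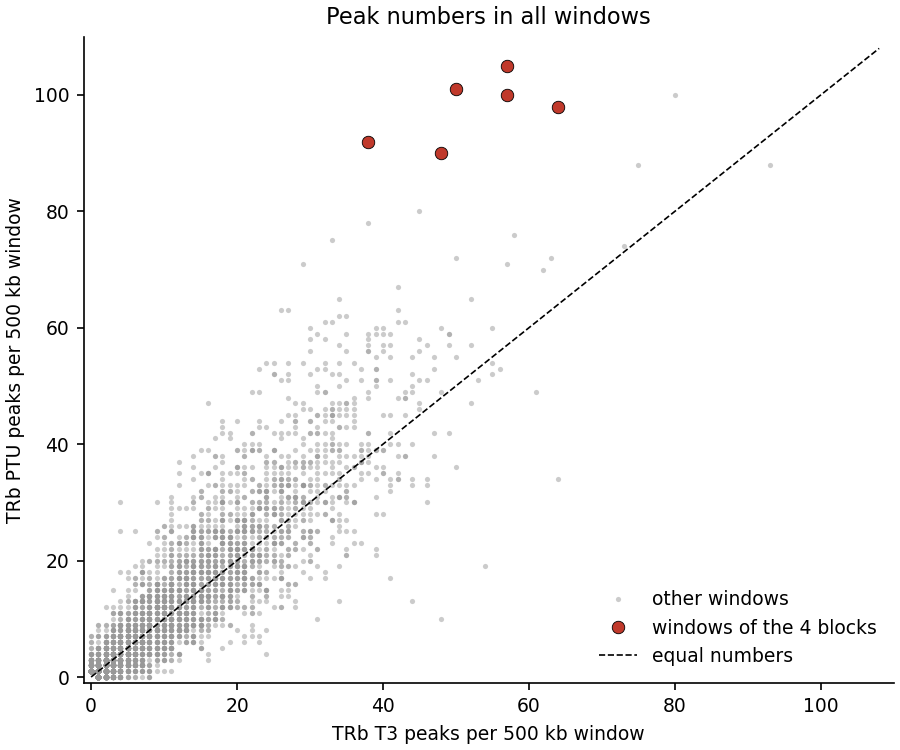
TRb PTU against TRb T3 peak numbers in windows of 500 kb, with the 6 windows of the blocks in red and all others in grey. The red points lie at 90 to 105 TRb PTU and 38 to 64 TRb T3 peaks, above the line of equal numbers.

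Just outside the blocks both lists had fewer peaks per window, with the excess on the same side. Next to the block on chromosome 10, the window from 79000001 had 38 PTU-only and 5 T3-only peaks. In the window from 81000001 they numbered 20 and 1. Beside chromosome 11 the counts were 16 and 7 from 119500001, and 28 and 10 from 120500001. On chromosome 8 they were 33 and 13 from 72500001, and 11 and 5 from 73500001. On chromosome 17 the window from 56500001 had 31 and 8, while the window from 55500001 had 0 peaks in both lists. In the same order, the PTU-only share of TRb PTU peaks was 58.5 and 66.7% beside chromosome 10. It was 43.2 and 53.8% beside chromosome 11, 55.9 and 36.7% beside chromosome 8, and 57.4% in the window from 56500001. Most of these shares were within or above the range of the windows of the blocks, 50 to 62.0%. The windows from 119500001 on chromosome 11 and from 73500001 on chromosome 8 were below it. Both windows beside chromosome 11 were below the share of that block, 62.0%. Peak numbers were thus lower at every edge, while the PTU-only share was lower at some edges and not at others. By the excess of PTU-only over T3-only peaks, 5 of the 6 windows ranked 1 to 4, the last place being a tie. The window on chromosome 8 tied at rank 9 with 52 and 16, after windows outside the blocks on chromosome 11 from 98500001 (46 and 3), on chromosome 15 from 78500001 (44 and 2) and on chromosome 11 from 75000001 (48 and 7). The PTU-only shares of these 3 were 61.3, 62.0 and 61.5%, at the upper end of the range over the blocks.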

How the data were processed

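ChIP-seq peak lists of mouse liver were used, 1 per ChIP sample (GFP PTU, TRb PTU, TRb T3), with groups taken from the sample titles. The submitters' processing notes name Bowtie, SAMtools, MACS2 and mm9. Versions, settings, filters and the control library used are not stated in these sources. The deposited score of each peak is the authors' peak caller's value, its statistic is not named, and it was used only for ranks within a list or among pairs. The lowest scores were 2.00 to 2.02 in the TRβ1 lists. No read counts come with the lists and their depth is unknown. The narrowest TRb PTU peak had 134 bp and the narrowest TRb T3 peak 132 bp.

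Peaks were made 1-based, assigned to blocks and to windows of 500 kb by midpoint, and classed by overlap of at least 1 bp. Shares have exact (Clopper-Pearson) 95% intervals, and the limit of a share of 0 was 3 counts of the total. Peaks named by rule are, in each 500 kb window of the blocks, the highest-scored shared, PTU-only and T3-only peak, the 5 highest of each class, the GFP peaks, the widest peaks and the closest and farthest PTU-only peak. The blocks, lists and rules were chosen with earlier results of these data known. Alternatives were another choice of dense windows, other overlap rules, a score filter, equal numbers of peaks, and leaving out GFP sites or a block. Planned work on sequence motifs, gene positions, gene lists and the check of liver marker genes was not run, because no mm9 genome or annotation was used here. The code for overlaps, distances and pairs was tested on simulated data. The work was done in Python 3.11.15 with pandas 2.3.3, numpy 2.4.6, scipy 1.17.1 and matplotlib 3.10.9.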

Additional observations from a re-analysis of the deposited data

How the results depend on the processing

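No paired analysis was possible because there was only 1 library of each kind, and alternatives for sequence features and gene positions were not run. The share of TRb PTU members overlapped by TRb T3 (45.1%) was 57.3% when midpoints within 1000 bp counted as shared. By that rule most TRb PTU members were thus shared too, unlike by overlap. The share of TRb T3 members overlapped by TRb PTU (88.2%) was 81.5% for midpoints within 200 bp, 93.6% within 1000 bp, 84.0% without the block on chromosome 10 and 91.6% without the block on chromosome 8. The other 30 of 35 alternatives for these shares, the ratio of peak numbers and the share of pairs ranked higher in TRb PTU stayed within the interval of the value reported, and the ratio stayed above 1. The PTU-only share of other dense windows (36.4%) was 43.9% when they were chosen by 80 peaks of both lists together, an alternative added after seeing the data. Of 80 alternatives for median percentiles and widths, 74 stayed within the interval of the median. With midpoints within 1000 bp, shared TRb PTU members had a median percentile of 71.5 (78.4) and a width of 274 bp (318). With the filter at the median score, widths were 288 bp for PTU-only (198), 239 bp for shared TRb T3 (206) and 213 bp for T3-only members (157), and the percentile of T3-only members, ranked again, was 36.3 (23.2). The filter at the median score also turns a shared peak into a single-list one where its partner is removed. Since depth is unknown, no comparison of peak numbers can be corrected for it.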
